A study of Mus musculus with 9 samples.

Results

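The genes of the tricarboxylic acid (TCA) cycle and of pyruvate entry were followed in liver RNA of Apoe-/- and Mif-2-/-Apoe-/- mice. The set is a list of 31 symbols grouped by gene function; the rule uses no measured value, although the list was drawn up with earlier results of these data known. It covers the mitochondrial pyruvate carrier, pyruvate carboxylase, the pyruvate dehydrogenase complex with its kinases and a phosphatase, and the enzymes of the cycle with their cytosolic counterparts. All 31 were among the 27179 genes of the count table, and 30 passed the filter for low counts, which left 16860 genes of the whole table. The member that did not pass was Sdhd, which encodes a membrane anchor of succinate dehydrogenase. It had 1 count over the 9 libraries, in Apoe-/- 5, and is given no fold change.

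The mice received a Western-type high-fat diet (HFD) for 12 weeks, from 8 weeks of age. The paper describes its main cohort on this schedule as female, reports male mice as well, and does not give the sex for the sequenced sections. Apoe-/- livers, which the labels call WT, gave 5 libraries, and Mif-2-/-Apoe-/- livers, which the labels call DKO, gave 4. Both genotypes lack apolipoprotein E, so no liver with an intact Apoe gene and no liver on another diet enters the comparison, and the second genotype also lacks MIF-2, a cytokine related to macrophage migration inhibitory factor, in every tissue. Each library was made with Smart-seq2 from pooled lysates of 3 to 4 frozen liver sections. The paper describes this tissue as fixed with paraformaldehyde (PFA) and embedded in OCT, and its sequencing methods give no section thickness. A figure legend of the paper gives fewer mice per group than there are Apoe-/- libraries, and no label ties a library to an animal. The p-values therefore measure the spread between these libraries.

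Pyruvate made in the cytosol by glycolysis is carried into mitochondria, where pyruvate dehydrogenase turns it into acetyl-CoA and pyruvate carboxylase turns it into oxaloacetate. The TCA cycle joins acetyl-CoA to oxaloacetate and oxidises it stepwise, which feeds electrons to the respiratory chain. In the liver its intermediates are also drawn off: malate and oxaloacetate serve gluconeogenesis, and citrate carries acetyl units to the cytosol for fatty acid and cholesterol synthesis.

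Total counts ranged from 2318148 to 10764182 per library, and 3 counts, taken as the floor of detection, were 0.279 to 1.294 CPM before scaling. CPM of single genes, here and below, are counts scaled by the total of the genes that passed the filter and a TMM size factor. Summed marker CPM are scaled by the library total alone, so the 2 scales differ. The floor covers counting error only. Ddt, the gene of MIF-2, had between 1205 and 4820 counts per Apoe-/- library and 6 to 27 per Mif-2-/-Apoe-/- library, as the labels say. All libraries had high levels of hepatocyte markers, with summed values of 90400 to 175900 CPM in Apoe-/- and 81230 to 192300 CPM in Mif-2-/-Apoe-/- livers over 15 genes, all detected. Apoe-/- 5 and Mif-2-/-Apoe-/- 2 stood apart from the other libraries of their genotype. The 10 most abundant genes held 14.7% of the counts of Apoe-/- 5 against 20.5 to 23.7% in the other Apoe-/- libraries, and 26.3% of those of Mif-2-/-Apoe-/- 2 against 12.5 to 17.0% in the others of that genotype. Counts are therefore also given without these libraries.

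No member passed the test between the genotypes. With edgeR's quasi-likelihood test and Benjamini-Hochberg adjustment over all genes tested, 0 of 30 members had an adjusted p under 0.05. Among all genes 22 did, 0.13% of those tested, with 0.0593% higher and 0.0712% lower in Apoe-/- livers. Without adjustment, 9 members had higher levels in Apoe-/- livers at a p under 0.05, where 6.52% of all genes did, and 1 had a lower level, where 8.99% of all genes did. The 9 were Mdh2, Sdhc, Mpc1, Sdha, Mdh1, Cs, Mpc2, Suclg1 and Sucla2, and the 1 was Pdk1. DESeq2, run as an alternative, gave an adjusted p under 0.05 to 4 members, Mdh2, Sdhc, Mpc1 and Sdha, all higher in Apoe-/- livers, and none lower, where it called 2.35% and 2.58% of all genes. The genotypes did not overlap at 3 members, Mdh2, Sdhc and Ogdh, each with the Apoe-/- libraries above, and at none with them below, where 2.24% and 2.03% of all genes were apart in these directions.

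Fold changes are given as log2 of Apoe-/- over Mif-2-/-Apoe-/- with the standard error (SE). They were above 0 for 23 of the 30 members, against 43.5% of all genes, and their median was 0.54, with a range of -0.91 to 1.94, against a median of -0.17 over all genes tested. Another scaling for sparse counts (TMMwsp) moved the median of all genes to 0.00 and that of the members to 0.71, so that 27 members were above 0, and library totals alone moved them to -0.35 and 0.32, so that 20 were. The distance between both medians was 0.71, 0.71 and 0.67 under the 3 scalings. It depended more on single libraries, falling to 0.43 without Mif-2-/-Apoe-/- 3 and reaching 0.86 without Apoe-/- 5. The set holds few low genes: 27 of the 30 members had a mean of 10 CPM or more. Of those 27, 22 had a fold change above 0, where 48.5% of the 8153 genes at that level did, 9 had a higher level at an unadjusted p under 0.05, where 10.9% did, and 3 did not overlap with Apoe-/- above, where 3.8% did.

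**Figure D1:**
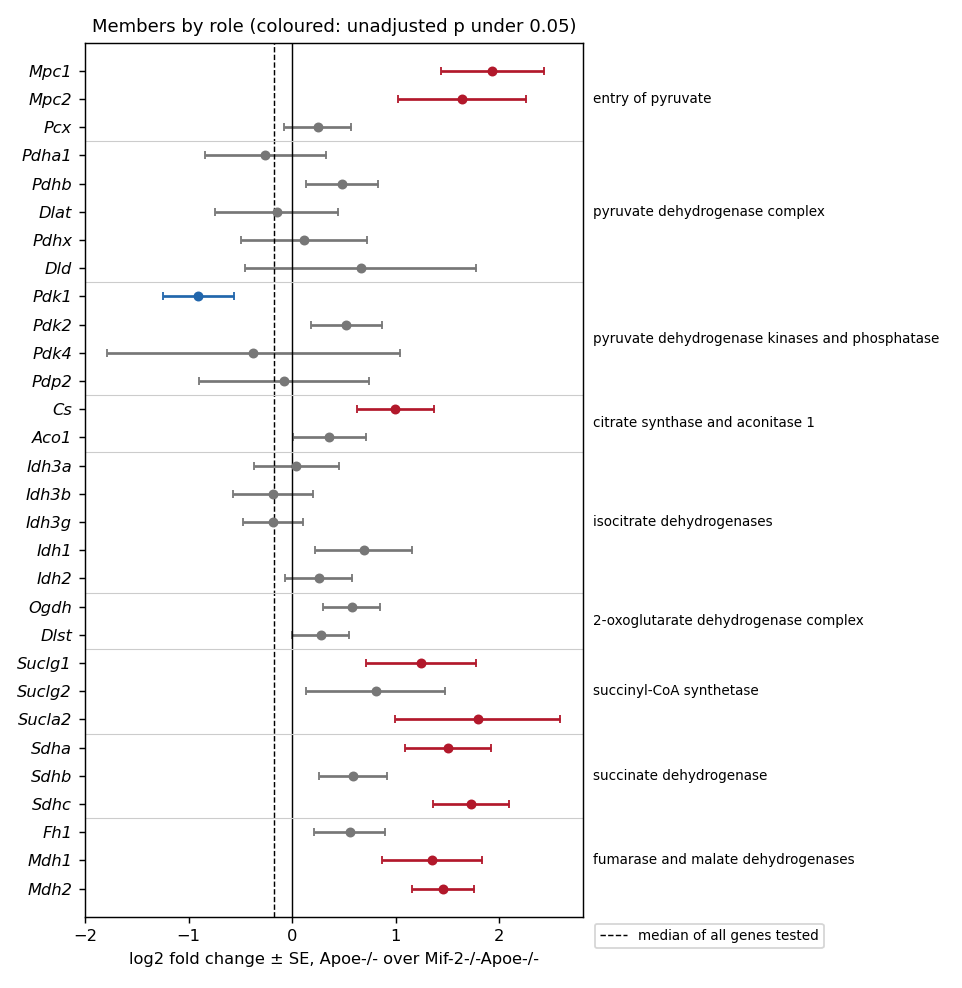
Log2 fold change (Apoe-/- over Mif-2-/-Apoe-/-, x axis) of the 30 members tested, as points with bars of 1 SE, grouped by role; the dashed line is the median of all genes tested at -0.17. Coloured points have an unadjusted p under 0.05, and none has an adjusted p under 0.05: carrier, succinyl-CoA synthetase, succinate dehydrogenase and malate dehydrogenase genes lie to the right, Pdk1 to the left, and the 3 Idh3 genes, Pdha1, Dlat and Pdhx within 0.26 of 0.

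The pyruvate carrier is a complex of 2 proteins of the inner mitochondrial membrane, encoded by Mpc1 and Mpc2. The promoters of Mpc1, Mpc2 and Sdha are shown here because, of the members with a RefSeq promoter and a match to one of 3 short motifs, these had the largest fold changes. The motifs were CCGGAAG, a core of sites bound by ETS factors such as GABP, TGCGCA, the palindromic core of the site of nuclear respiratory factor 1, and AAGGTCA, an extended nuclear receptor site. The sequences are the 250 bases before the annotated start, 5′ to 3′ on the gene's strand, from RefSeq on GRCm38.p6, and capitals mark the motif matches on either strand. They are chr17:8283537-8283786 on the plus strand for Mpc1, chr1:165461010-165461259 on the plus strand for Mpc2 and chr13:74350241-74350490 on the minus strand for Sdha.
Mpc1: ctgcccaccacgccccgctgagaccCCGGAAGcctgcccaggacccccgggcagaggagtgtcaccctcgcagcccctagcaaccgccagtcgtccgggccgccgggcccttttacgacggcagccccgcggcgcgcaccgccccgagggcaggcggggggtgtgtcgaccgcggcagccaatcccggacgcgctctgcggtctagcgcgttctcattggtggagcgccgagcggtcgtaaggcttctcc
Mpc2: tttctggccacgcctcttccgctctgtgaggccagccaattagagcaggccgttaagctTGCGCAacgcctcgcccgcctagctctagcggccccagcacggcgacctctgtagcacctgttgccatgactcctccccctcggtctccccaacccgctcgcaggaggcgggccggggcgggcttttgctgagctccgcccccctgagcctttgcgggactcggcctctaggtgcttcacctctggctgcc
Sdha: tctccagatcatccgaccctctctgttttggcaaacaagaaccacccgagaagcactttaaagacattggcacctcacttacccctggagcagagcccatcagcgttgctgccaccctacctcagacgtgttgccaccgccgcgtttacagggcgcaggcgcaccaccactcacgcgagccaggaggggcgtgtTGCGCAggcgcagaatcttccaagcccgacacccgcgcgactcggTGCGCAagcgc

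The matches begin 225 bases before the start in Mpc1, 191 before it in Mpc2, and 56 and 11 before it in Sdha. RefSeq has another promoter of Mpc1, chr17:8284204-8284453 on the plus strand, with no match in its 250 bases. Over windows from 250 bases before to 50 bases after the start, RefSeq had 39 promoters for 29 of the 31 members, with none for Idh3a and Sdhc. CCGGAAG was in 6 of the 39 (15.4%) and in 8.86% of all 32851 promoters, TGCGCA in 7 (17.9%) and 7.76%, and AAGGTCA in 2 (5.13%) and 4.72%. The genes with CCGGAAG were Dlst, Idh3b, Idh3g, Mpc1, Sdhb and Sdhd, those with TGCGCA were Dld, Mdh2, Mpc2, Ogdh, Sdha and Sdhd, and those with AAGGTCA were Ogdh and Sdhd. These are matches of letters, and no binding was measured.

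Both carrier genes had higher means in Apoe-/- livers. Mpc1 (GRCm38, chromosome 17, 8283787 to 8297667) was at 110.2, 177, 161.5, 271 and 55.6 CPM in Apoe-/- libraries 1 to 5 and at 42.9, 72.7, 31.0 and 16.7 CPM in Mif-2-/-Apoe-/- libraries 1 to 4. Apoe-/- 5 was the lowest of its genotype and lay below Mif-2-/-Apoe-/- 2, the highest of the other, and the remaining libraries did not overlap. The means were 155.1 ± 80.4 (SD, n = 5) against 40.8 ± 23.8 CPM (SD, n = 4), 3.82-fold apart. The log2 fold change was 1.94 (SE 0.50, edgeR adjusted p = 0.137, DESeq2 adjusted p = 0.0121). The span of Mpc1 overlaps that of 4930506C21Rik, and the annotation names a copy, Mpc1-ps, so its count may hold reads of either.

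Mpc2, its partner in the carrier, was at 291, 301, 469.5, 770 and 116.2 CPM in the Apoe-/- and at 119.8, 294, 51.4 and 34.8 CPM in the Mif-2-/-Apoe-/- libraries. Apoe-/- 4 was again the highest and Mif-2-/-Apoe-/- 4 the lowest, and the groups overlapped through Apoe-/- 5 and Mif-2-/-Apoe-/- 2. Its log2 fold change was 1.65 (SE 0.62, edgeR adjusted p = 0.231), and it was 2.61 without Mif-2-/-Apoe-/- 2 (edgeR adjusted p = 0.0496) and 1.32 without Apoe-/- 4. The log2 ratio of Mpc1 to Mpc2 within a library, which does not depend on the scaling, was -1.25 ± 0.33 (SD, n = 5) in Apoe-/- and -1.32 ± 0.55 (SD, n = 4) in Mif-2-/-Apoe-/- livers (two-sided exact permutation test, p = 0.85, adjusted over 10 ratios 0.849). Pcx, pyruvate carboxylase, showed no such distance, with 485 ± 159.7 (SD, n = 5) against 408.6 ± 62.8 CPM (SD, n = 4) and a fold change (log2) of 0.25 (SE 0.32), which was -0.01 with library totals alone.

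**Figure D2:**
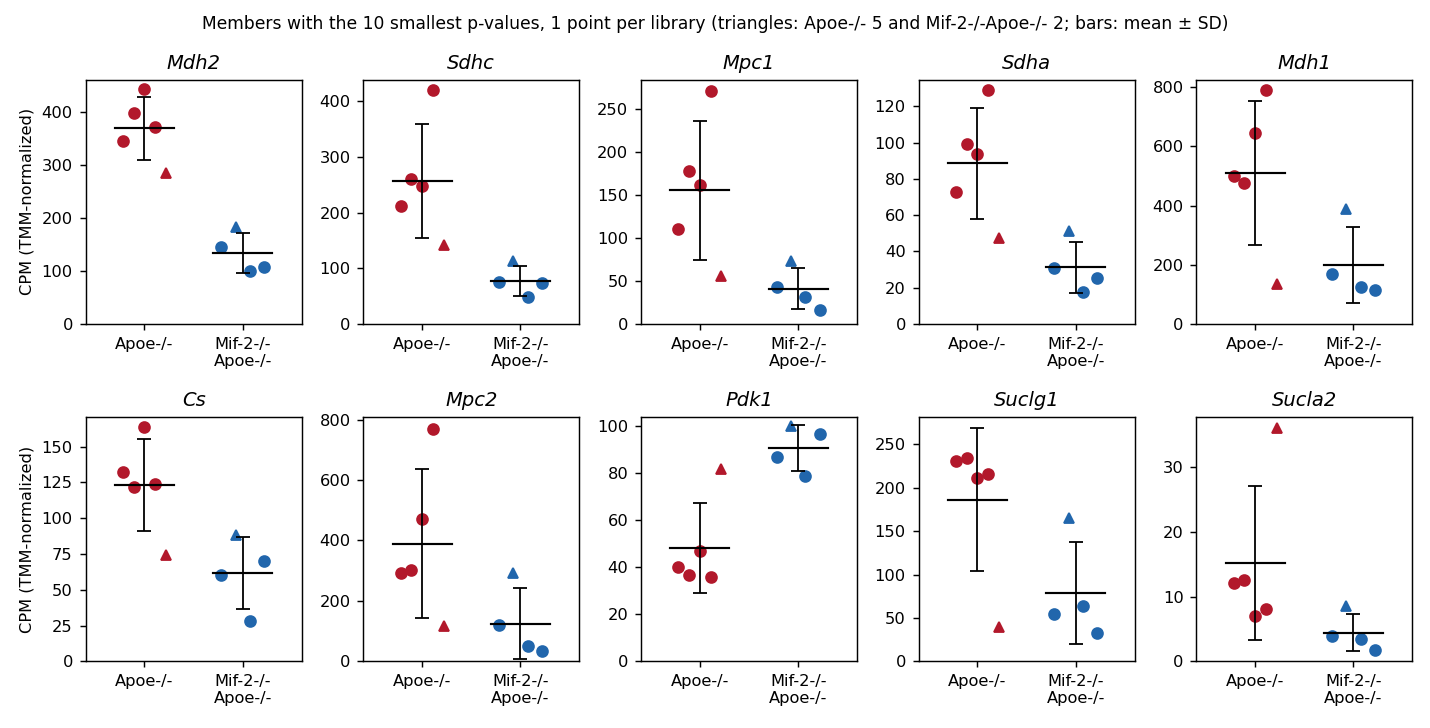
TMM-normalized CPM (y axes, from 0) of the 10 members with the smallest p-values, 1 point per library, with the mean ± SD of each genotype; triangles are Apoe-/- 5 and Mif-2-/-Apoe-/- 2. The genotypes are apart at Mdh2 and Sdhc, while at most of the other genes the 2 triangles lie on the side of the opposite genotype; Sucla2 has its highest value, 36.0 CPM, in Apoe-/- 5.

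The pyruvate dehydrogenase complex, which commits pyruvate to oxidation, had genes on either side of 0. Pdha1 and Pdhb encode its first enzyme, Dlat the second, Pdhx a binding protein and Dld the third, which it shares with the 2-oxoglutarate dehydrogenase complex. None of these 5 genes had an unadjusted p under 0.05 and their log2 fold changes ranged from -0.26 for Pdha1 to 0.66 for Dld, which was 1.47 without Mif-2-/-Apoe-/- 3. The fold change of Dlat, -0.15, was above 0 with TMMwsp scaling, and that of Pdhx, 0.11, was below 0 with library totals alone. Pdhb, the most abundant of them per length, was at 71.5, 72.4, 59.2, 127 and 69.5 CPM in the Apoe-/- and at 80.3, 56.8, 47.4 and 44.6 CPM in the Mif-2-/-Apoe-/- libraries. Apoe-/- 4 was well above the other libraries, and Mif-2-/-Apoe-/- 1 was above the remaining 4 of Apoe-/-. Pdha1, Dlat and Pdhx had means between 15.1 and 20.7 CPM in both genotypes, and Dld was at 5.19 and 3.23 CPM with 0 counts in Mif-2-/-Apoe-/- 2 and 3 counts, the floor, in Mif-2-/-Apoe-/- 4.

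The kinases and the phosphatase that switch the complex off and on did not share a direction. Pdk1 encodes a kinase that inactivates pyruvate dehydrogenase and lies on chromosome 2 from 71873215 to 71903858. It was at 40.1, 36.7, 46.95, 35.7 and 81.7 CPM in the Apoe-/- and at 86.6, 99.95, 78.9 and 96.7 CPM in the Mif-2-/-Apoe-/- libraries. Apart from Apoe-/- 5, which lay above Mif-2-/-Apoe-/- 3, every Apoe-/- library was below every Mif-2-/-Apoe-/- library. The means were 48.2 ± 19.2 (SD, n = 5) against 90.5 ± 9.63 CPM (SD, n = 4), and the log2 fold change was -0.91 (SE 0.34, edgeR adjusted p = 0.234, DESeq2 adjusted p = 0.0936).

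Pdk2, the kinase with the highest level per length here, had the opposite sign, with 133 ± 32.8 (SD, n = 5) against 93.0 ± 33.7 CPM (SD, n = 4) and a fold change (log2) of 0.52 (SE 0.34). Pdk4, the kinase that is induced by fasting and fatty acids in many tissues, was close to the floor, where the Apoe-/- libraries had 3, 6, 3, 6 and 16 counts and the Mif-2-/-Apoe-/- libraries 0, 1, 26 and 0. Its log2 fold change of -0.37 (SE 1.41) was 3.21 without Mif-2-/-Apoe-/- 3, so no direction is given. Pdp2, a phosphatase that reactivates the complex, was at 7.67 and 8.18 CPM, and its fold change of -0.08 was above 0 with TMMwsp.

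At the entry of the cycle Cs, citrate synthase, had higher levels in most Apoe-/- libraries. It was at 132, 121.6, 164, 124 and 74.3 CPM in the Apoe-/- and at 60.4, 88.0, 28.2 and 70.2 CPM in the Mif-2-/-Apoe-/- libraries. The groups overlapped where Apoe-/- 5 lay below Mif-2-/-Apoe-/- 2. The means were 2-fold apart, with a log2 fold change of 0.999 (SE 0.37, edgeR adjusted p = 0.229, DESeq2 adjusted p = 0.0935). Aco1, the cytosolic aconitase that doubles as an iron-regulated RNA-binding protein, was at 124.5 ± 27.5 (SD, n = 5) against 97.0 ± 49.9 CPM (SD, n = 4), and the log2 fold change was 0.36 (SE 0.35).

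Of the isocitrate dehydrogenases, which make 2-oxoglutarate, the NAD-dependent ones were near 0. Idh3a, Idh3b and Idh3g encode the subunits of the NAD-dependent enzyme of the cycle, and their log2 fold changes were 0.04, -0.19 and -0.19. The signs of these 3 depended on the scaling, since those of Idh3b and Idh3g turned with TMMwsp and that of Idh3a with library totals alone. Idh3b had its lowest level, 82.3 CPM, in Apoe-/- 5, against 225 to 405 CPM in the other Apoe-/- libraries, and its span overlaps that of Nop56. Idh3a stayed at 19.6 to 34.9 CPM over all 9 libraries. Idh1, the cytosolic NADP-dependent enzyme, was at 45.8 ± 12.4 (SD, n = 5) against 28.5 ± 15.8 CPM (SD, n = 4), and the log2 fold change was 0.69 (SE 0.47). Idh2, its mitochondrial counterpart, was at 262 ± 71.4 (SD, n = 5) against 219 ± 72.9 CPM (SD, n = 4), and the log2 fold change was 0.26 (SE 0.33). The log2 ratio of Idh1 to Idh2 was -2.49 ± 0.49 (SD, n = 5) in Apoe-/- and -3.09 ± 1.23 (SD, n = 4) in Mif-2-/-Apoe-/- livers (two-sided exact permutation test, p = 0.37, adjusted 0.73).

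Ogdh and Dlst encode the first and second enzymes of the 2-oxoglutarate dehydrogenase complex. Ogdh, on chromosome 11 from 6291597 to 6359094, was at 285, 268, 259.6, 352 and 344 CPM in the Apoe-/- and at 218, 258, 147 and 187 CPM in the Mif-2-/-Apoe-/- libraries. The groups did not overlap, although Apoe-/- 3 lay only just above Mif-2-/-Apoe-/- 2, and Apoe-/- 5 was among the highest. The means were 302 ± 43.4 (SD, n = 5) against 203 ± 47.3 CPM (SD, n = 4), 1.49-fold apart, with a log2 fold change of 0.57 (SE 0.28, edgeR adjusted p = 0.343, DESeq2 adjusted p = 0.152). Dlst was at 211 ± 42.0 (SD, n = 5) against 174 ± 28.2 CPM (SD, n = 4), and the log2 fold change was 0.28 (SE 0.28).

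Succinyl-CoA synthetase is made of a shared alpha subunit, from Suclg1, and a beta subunit that sets whether GTP or ATP is made, from Suclg2 or Sucla2. Suclg1 was at 231, 234, 211, 216 and 39.9 CPM in the Apoe-/- and at 54.3, 165, 63.5 and 32.5 CPM in the Mif-2-/-Apoe-/- libraries. Apoe-/- libraries 1 to 4 were close to each other and above every Mif-2-/-Apoe-/- library, while Apoe-/- 5 was lower than 3 of the 4. Its log2 fold change was 1.25 (SE 0.53, edgeR adjusted p = 0.283), and 1.996 without Mif-2-/-Apoe-/- 2.

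Sucla2 went the other way in Apoe-/- 5. It was at 12.1, 12.6, 7.04, 8.06 and 36.0 CPM in the Apoe-/- and at 3.86, 8.52, 3.53 and 1.83 CPM in the Mif-2-/-Apoe-/- libraries. Of the other Apoe-/- libraries, 2 lay above and 2 just below Mif-2-/-Apoe-/- 2. The log2 fold change was 1.79 (SE 0.80, edgeR adjusted p = 0.30), and 1.18 without Apoe-/- 5. Suclg2 was at 20.5 ± 6.87 (SD, n = 5) against 11.6 ± 10.7 CPM (SD, n = 4), and the log2 fold change was 0.81 (SE 0.67), which was 1.67 without Mif-2-/-Apoe-/- 1 and 0.48 without Mif-2-/-Apoe-/- 4.

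Succinate dehydrogenase, which is also complex II of the respiratory chain, had 3 measured subunits. Sdha encodes the flavoprotein that oxidises succinate, Sdhb the iron-sulfur protein and Sdhc a membrane anchor. Sdha, on chromosome 13 from 74322255 to 74350240, was at 72.7, 99.1, 93.9, 129 and 47.6 CPM in the Apoe-/- and at 30.7, 51.1, 17.9 and 25.2 CPM in the Mif-2-/-Apoe-/- libraries. The groups overlapped only where Apoe-/- 5 lay just below Mif-2-/-Apoe-/- 2. The means were 88.5 ± 30.4 (SD, n = 5) against 31.2 ± 14.3 CPM (SD, n = 4), 2.85-fold apart, and the log2 fold change was 1.51 (SE 0.42, edgeR adjusted p = 0.146, DESeq2 adjusted p = 0.0122).

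Sdhc, on chromosome 1 from 171129157 to 171150640, was at 212.5, 261, 247, 420.1 and 142.5 CPM in the Apoe-/- and at 75.8, 112, 48.1 and 73.6 CPM in the Mif-2-/-Apoe-/- libraries. Every Apoe-/- library lay above every Mif-2-/-Apoe-/- library, with Apoe-/- 5 and Mif-2-/-Apoe-/- 2 nearest to each other. The means were 257 ± 102.2 (SD, n = 5) against 77.5 ± 26.5 CPM (SD, n = 4), 3.32-fold apart, and the log2 fold change was 1.73 (SE 0.37, edgeR adjusted p = 0.104, DESeq2 adjusted p = 0.000701).

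Sdhb had the highest level per length of all members, 269 CPM per kilobase of exon in Apoe-/- livers. It was at 679, 649.6, 607, 766 and 314 CPM in the Apoe-/- and at 319.9, 590.1, 305 and 389.6 CPM in the Mif-2-/-Apoe-/- libraries, and Apoe-/- 5 lay below 3 of the latter. The log2 fold change was 0.59 (SE 0.33, edgeR adjusted p = 0.408). The log2 ratio of Sdha to Sdhb, 2 subunits of 1 enzyme, was -2.78 ± 0.25 (SD, n = 5) in Apoe-/- and -3.73 ± 0.34 (SD, n = 4) in Mif-2-/-Apoe-/- livers. The 2 genotypes did not overlap, with a difference of 0.95 (two-sided exact permutation test, p = 0.016, adjusted over 10 ratios 0.159, where the smallest p that the design allows is 0.0079). It did not pass the correction, which no ratio that differs alone among 10 could do in this design, where its adjusted p cannot be below 0.079.

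The last steps of the cycle had the gene with the smallest p of the set. Mdh2, the mitochondrial malate dehydrogenase, lies on chromosome 5 from 135778649 to 135790386 and was at 346, 398.5, 443, 371.5 and 284 CPM in the Apoe-/- and at 146, 183, 99.3 and 107.7 CPM in the Mif-2-/-Apoe-/- libraries. No Mif-2-/-Apoe-/- library came near the lowest Apoe-/- library. The means were 369 ± 59.4 (SD, n = 5) against 134 ± 38.4 CPM (SD, n = 4), 2.75-fold apart, and the log2 fold change was 1.46 (SE 0.30, edgeR adjusted p = 0.0897, DESeq2 adjusted p = 1.28e-05). It stayed between 1.27 and 1.74 under all alternatives that kept at least 8 libraries.

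Mdh1, the cytosolic malate dehydrogenase of the malate-aspartate shuttle, was at 499, 478, 645, 789 and 136.5 CPM in the Apoe-/- and at 170, 389, 126 and 113.6 CPM in the Mif-2-/-Apoe-/- libraries. Apoe-/- 5 was within the range of Mif-2-/-Apoe-/- livers, and Mif-2-/-Apoe-/- 2 was nearest to the other Apoe-/- libraries. The log2 fold change was 1.35 (SE 0.49, edgeR adjusted p = 0.214), and 2.002 without Mif-2-/-Apoe-/- 2. Fh1, fumarase, was at 143 ± 51.5 (SD, n = 5) against 97.0 ± 22.5 CPM (SD, n = 4), and the log2 fold change was 0.56 (SE 0.34). The log2 ratio of Mdh1 to Mdh2 was 0.27 ± 0.80 (SD, n = 5) and 0.43 ± 0.45 (SD, n = 4), a difference of -0.16 (two-sided exact permutation test, p = 0.80, adjusted 0.849).

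**Figure D3:**
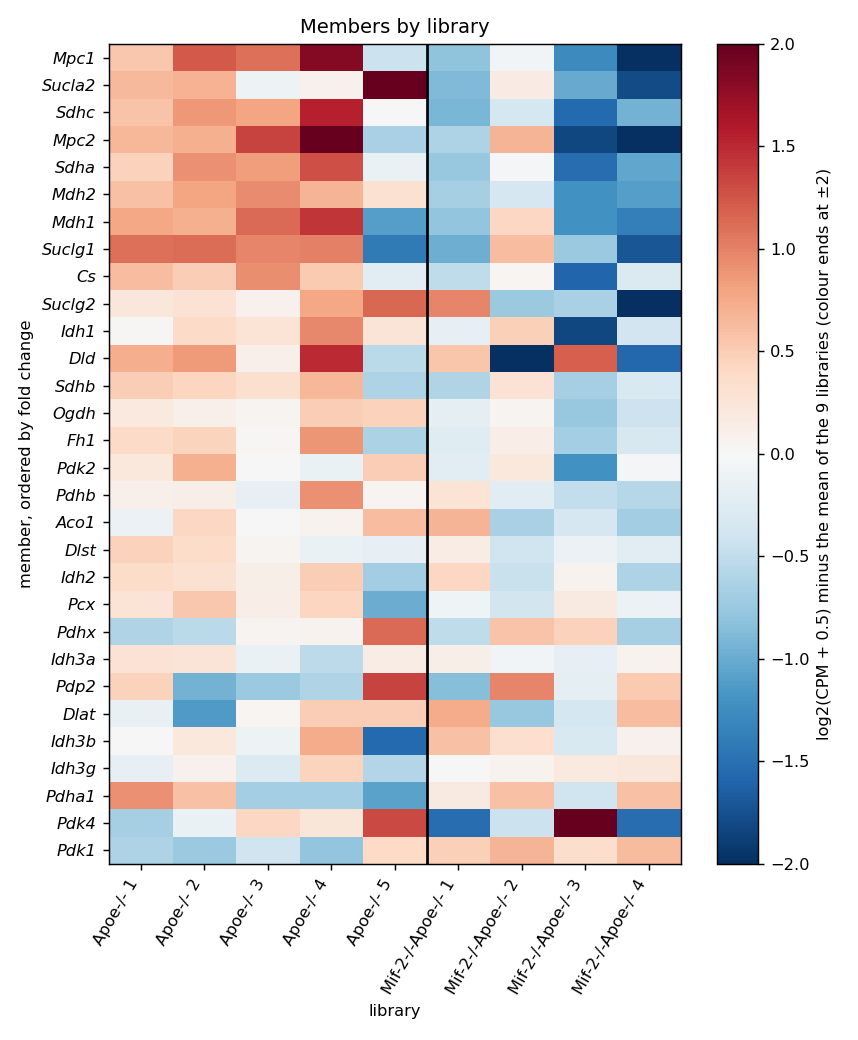
Level of each member tested in each library, as log2(CPM + 0.5) minus the member's mean over the 9 libraries (colour, ending at ±2), with members ordered by fold change and a line between the genotypes. Members at the top are red in Apoe-/- 1 to 4 and blue in Mif-2-/-Apoe-/- 1, 3 and 4, while Apoe-/- 5 and Mif-2-/-Apoe-/- 2 break the pattern; Pdk1, at the bottom, has the opposite colours.

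The levels of the members per length spread widely. The length of a gene was that of the merged exons of all its annotated transcripts, used in liver or not, so the order of genes is approximate. After Sdhb, the highest CPM per kilobase of exon in Apoe-/- livers were those of Mdh1 (198), Mdh2 (104), Pcx (102) and Idh2 (101.0), and the lowest were those of Dld (1.41), Pdp2 (1.35) and Pdk4 (0.395). The subunits of the pyruvate dehydrogenase complex lay far below the pyruvate carboxylase gene on this scale, at 20.7 CPM per kilobase for Pdhb and 4.61 for Pdha1. In Mif-2-/-Apoe-/- livers Sdhb (179), Pcx (86.0), Idh2 (84.7) and Idh3b (82.0) led, and Mdh2 was at 37.6.

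Single libraries were often the highest or the lowest of their genotype. Apoe-/- 4 had the highest level of its genotype in 15 of the 30 members and Apoe-/- 5 the lowest in 17. In Mif-2-/-Apoe-/- livers library 2 was highest in 17, and libraries 3 and 4 were lowest in 13 and 10. Of the 9 members with higher levels in Apoe-/- livers at an unadjusted p under 0.05, Apoe-/- 5 was the lowest of its genotype in 8 and Mif-2-/-Apoe-/- 2 the highest in 9. In all 9, the other 4 Apoe-/- libraries lay above the other 3 Mif-2-/-Apoe-/- libraries. In a fit without Apoe-/- 5 and Mif-2-/-Apoe-/- 2, this held for 12.3% of all genes. The 9 were picked for higher levels in Apoe-/- livers, and the libraries set aside mostly held the values nearest the other genotype. The separation follows largely from these choices and is a description.

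The counts of members called turned on these libraries. Without Apoe-/- 5, edgeR called 3 members, Mdh2, Mpc1 and Sdhc, higher in Apoe-/- livers, and none lower, where 0.456% and 0.321% of all genes were called, and the genotypes did not overlap at 9 members with Apoe-/- above, where 6.31% of all genes did not. Without Mif-2-/-Apoe-/- 2 it called 5 higher, those 3 with Sdha and Mpc2, and none lower, where 1.23% and 0.373% were, and 9 members did not overlap, where 6.13% of all genes did not. Without both, an alternative chosen after seeing the data, it called 9 members (Mdh1, Suclg1, Mdh2, Sdhc, Mpc1, Mpc2, Sdha, Sdhb and Cs), and no member lower, where 5.34% and 3.37% of all genes were called. The genotypes then did not overlap at 14 members with Apoe-/- above, where 12.3% of all genes did not. Apoe-/- 5 held the lowest Apoe-/- value and Mif-2-/-Apoe-/- 2 the highest Mif-2-/-Apoe-/- value in each of the 9 genes called, so leaving them out widens the gap by construction, and these counts are a description.

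**Figure D4:**
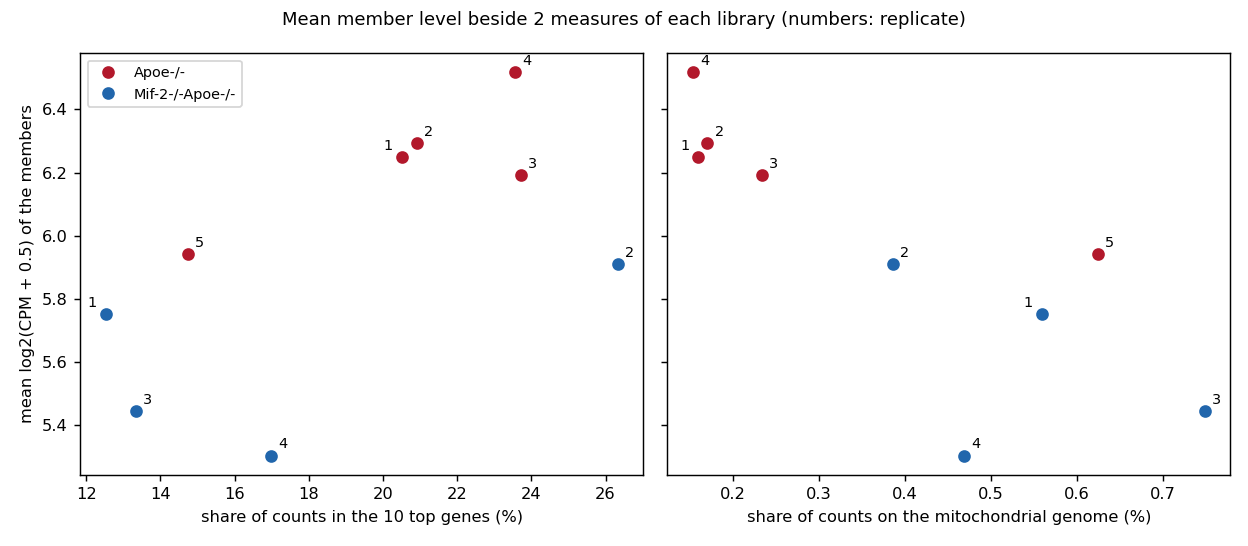
Mean log2(CPM + 0.5) of the 30 members tested (y axis) in each library against the share of counts held by the 10 most abundant genes (left, %) and against the share on the mitochondrial genome (right, %), with the replicate number beside each point. The Apoe-/- means lie between 5.94 and 6.52 and the Mif-2-/-Apoe-/- means between 5.30 and 5.91; Apoe-/- 5 lies with the Mif-2-/-Apoe-/- libraries in both shares, and Mif-2-/-Apoe-/- 2 has the highest share of the top genes.

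Other measures of the libraries moved with the members, and their part in the differences was not tested. Counts on the mitochondrial genome were 0.154 to 0.234% of the total in Apoe-/- 1 to 4, 0.624% in Apoe-/- 5 and 0.386 to 0.748% in the Mif-2-/-Apoe-/- libraries (two-sided exact permutation test over 9 libraries, p = 0.0873, adjusted over 4 measures 0.254). The share of the 10 most abundant genes did not differ between the genotypes by this test (p = 0.333 by the same permutation test, adjusted 0.365). With that share as a covariate in the fit, 0 members were called and their median fold change was 0.47, against -0.01 over all genes. Summed sinusoidal endothelial markers were at 316 to 662 CPM in Apoe-/- and at 183 to 842 CPM in Mif-2-/-Apoe-/- livers over 10 genes, with Apoe-/- 5 highest and Mif-2-/-Apoe-/- 2 lowest of their genotypes. Summed Kupffer cell and macrophage markers (12 genes) were at 1322 to 2156 and 1512 to 1683 CPM. Clec4f was the largest part, at means of 835 and 852 CPM on the scale of single genes, which is not that of the sums. Of the 12 genes, 9 had a fold change above 0, where 43.5% of all genes did, and edgeR called 0, where it called 0.13%. At an unadjusted p under 0.05, 3 were higher in Apoe-/- livers, where 6.52% of all genes were. These, named after their values were seen, were Cd5l (log2 fold change 1.196), C1qa (1.12) and Lyz2 (0.90). The 3 genes below 0 were Csf1r (-0.31), Vsig4 (-0.17) and Clec4f (-0.03). DESeq2 called 1 higher, Cd5l (adjusted p = 0.0364), and none lower, where it called 2.35% and 2.58% of all genes. Of the 15 hepatocyte markers, edgeR tested 10, with 6 fold changes above 0, 4 below and 0 called. At an unadjusted p under 0.05, 1 was higher (Cyp3a11, log2 fold change 1.88) and 1 lower (Tat, -1.05), where 6.52% and 8.99% of all genes were. DESeq2 called 2 of the 15 higher, Cyp3a11 among them (adjusted p = 0.0168), and none lower. Stellate cell markers (11 genes) were at 213 to 446 and 267 to 649 CPM.

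The remaining marker lists also overlapped between the genotypes. Cholangiocyte markers (7 genes) were at 93.1 to 218 and 84.4 to 324 CPM, erythroid markers (4 genes) at 92.7 to 222 and 53.6 to 165 CPM, lymphocyte markers (8 genes) at 16.5 to 37.4 and 17.4 to 43.7 CPM, and neutrophil markers (6 genes, with Ly6g at 0) at 15.6 to 39.2 and 27.8 to 66.1 CPM. Striated muscle markers (6 genes), which a liver section should lack, were at 163 to 559 and 376 to 728 CPM. All 6 fold changes were below 0, as were those of 9532 of the 16860 genes tested, and none had an unadjusted p under 0.05 by edgeR. Adipocyte markers (5 genes) were at 6.75 to 24.7 and 3.88 to 49.2 CPM. In bulk RNA, fewer cells of a type and less RNA per cell cannot be told apart.

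Genes around the pathway did not share one direction. Of 32 other genes of pyruvate and TCA metabolism, all tested, 17 had a fold change above 0 and 15 below, with a median of 0.05, where 43.5% of all genes were above 0. edgeR called 0 of them, where it called 0.13% of all genes. At an unadjusted p under 0.05, 4 were higher in Apoe-/- livers (Ldha, Got2, Me1 and Glud1) and 1 was lower (Pck1), where 6.52% and 8.99% of all genes were. DESeq2 called Ldha higher and Pck1 lower, where it called 2.35% and 2.58% of all genes. The genotypes did not overlap at 2 with Apoe-/- above and at 1 with it below, where 2.24% and 2.03% of all genes did not. Glud1 is named because the count was small, after its value was seen.

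Ldha, the lactate dehydrogenase subunit that links pyruvate to lactate, was at 1358, 1306, 919.7, 1243 and 676 CPM in the Apoe-/- and at 253, 531, 242 and 166 CPM in the Mif-2-/-Apoe-/- libraries. The groups did not overlap, and the log2 fold change of 1.89 (SE 0.38, edgeR adjusted p = 0.0851, DESeq2 adjusted p = 0.000232) was close to that of Mpc1. Me1, the cytosolic malic enzyme, which makes pyruvate and NADPH from malate, did not overlap either, at 23.6 to 48.6 against 4.47 to 21.0 CPM (log2 fold change 1.51, SE 0.54, edgeR adjusted p = 0.213). Got2, the mitochondrial aspartate aminotransferase, was at 277 ± 75.9 (SD, n = 5) against 148 ± 41.5 CPM (SD, n = 4).

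Pck1, the cytosolic enzyme that draws oxaloacetate off to gluconeogenesis, went the other way. It was at 1030, 994, 670.4, 1058 and 414.5 CPM in the Apoe-/- and at 3002, 1878, 1355 and 1309 CPM in the Mif-2-/-Apoe-/- libraries. The groups did not overlap, and Apoe-/- 5 was here farthest from the other genotype. The log2 fold change was -1.18 (SE 0.36, edgeR adjusted p = 0.171, DESeq2 adjusted p = 0.0221). The next lower genes by p were Gls2, liver glutaminase, with a log2 fold change of -0.51 (SE 0.30), and Slc25a12, a mitochondrial aspartate-glutamate carrier, with -0.75 (SE 0.52).

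**Figure D5:**
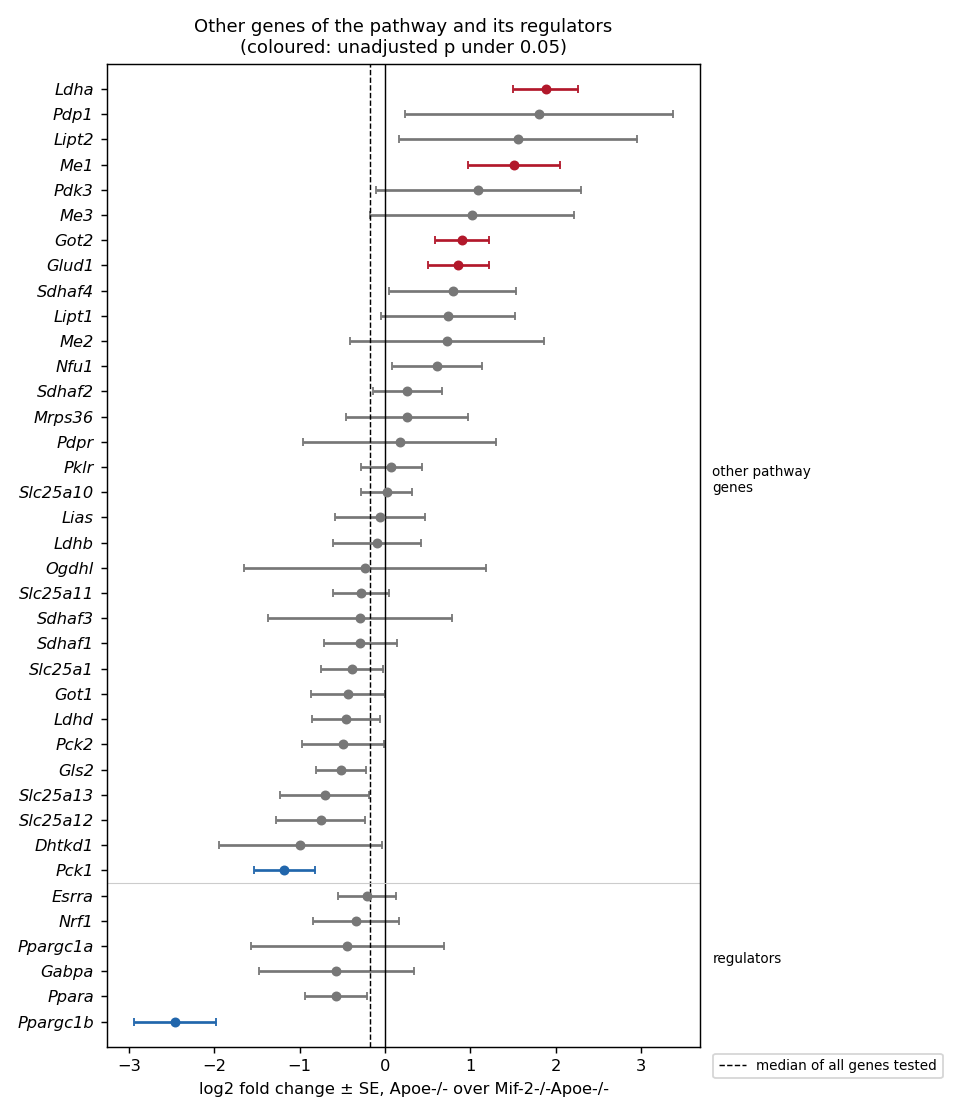
Log2 fold change (Apoe-/- over Mif-2-/-Apoe-/-, x axis) of 32 other genes of pyruvate and TCA metabolism and of 6 regulators of mitochondrial genes, as points with bars of 1 SE; the dashed line is the median of all genes tested. Coloured points have an unadjusted p under 0.05: Ldha, Me1, Got2 and Glud1 lie to the right, and Pck1 and Ppargc1b to the left. All 6 regulators lie below 0, as do 9532 of the 16860 genes tested.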

How the data were processed

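Bulk RNA sequencing of frozen liver sections was analysed in 9 libraries, grouped by the genotype in the labels. The authors deposited raw counts of reads per Entrez gene. The submitters' processing notes name FastQC, cutadapt, HISAT2 and mm10; the counter, its use of strand and any removal of duplicates are not given in the sources used here. Of 27179 genes in the table, after removal of 1 line without an identifier, 25275 had a RefSeq symbol (GRCm38.p6) and 1904 had none. Total counts were 2318148 to 10764182.

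The methods name DESeq2 for these sections and no filter. Following a filter that the study's reporting summary gives for its bulk RNA-seq and its methods give for separate liver lysates, a gene had to have 1 count or more in 3 or more libraries of a genotype, and the 10 most abundant genes were excluded. Other steps given for the lysates (dropping rRNA, mitochondrial and predicted genes, and RNA quality as a covariate) were not applied. The fit over the 16860 genes left used edgeR 4.0.16 in R 4.3.3 (quasi-likelihood, TMM size factors, Benjamini-Hochberg adjusted p-values), with a biological coefficient of variation of 0.909. The SE was obtained from the fold change and its F statistic. DESeq2 1.42.0, an alternative run without the filter, gave an adjusted p-value to 14686 genes. Ratios within a library used 0.5 added counts and all 126 arrangements of the libraries. Figures were made with Python 3.11.15 and matplotlib 3.10.9.

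The members and lists were chosen with earlier results of these data known. All members are accounted for; of the other lists, the genes named are those called by edgeR and otherwise the 3 with the smallest unadjusted p in each direction. Alternatives were other size factors, other filters, the top 10 genes kept or their share as a covariate, a replicate block, counts thinned to the smallest library, DESeq2, 5 added counts for ratios, each library left out, and, added later, 2 libraries left out together. Levels per kilobase used GENCODE M21 exon lengths, merged over all annotated transcripts of a gene. A gene of the pathway is not reported here.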

Additional observations from a re-analysis of the deposited data

Results flagged for a closer look

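In 60 groups of values (30 members in each genotype), 6 had a library far from the others of its genotype by Dixon's criterion, where chance flags about 1 in 20 groups. Apoe-/- 5 was that library at 4 members. It had 39.9 CPM of Suclg1, the alpha subunit of succinyl-CoA synthetase, against 211 to 234 CPM in the other Apoe-/- libraries, and 36.0 CPM of Sucla2, a beta subunit of the same enzyme, against 7.04 to 12.6 CPM. It also had 32.1 CPM of Pdhx against 9.33 to 15.1 CPM, and 81.7 CPM of Pdk1 against 35.7 to 47.0 CPM. Apoe-/- 4 had 127 CPM of Pdhb against 59.2 to 72.4 CPM, and Mif-2-/-Apoe-/- 3 had 6.55 CPM of Pdk4, or 26 counts, against at most 1 count in the others.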

How the results depend on the processing

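Changes of size factors, of the filter on low counts, of the 10 most abundant genes and of the depth called 0 members, like the test reported, and 25 to 32 genes in all. The members without overlap, with Apoe-/- above, were 3 in the test reported. They were 2 with another scaling (RLE size factors) and 2 in thinned counts. With the top genes' share in the model, 35 genes were called, 0 of them members and 1 another gene of the pathway. DESeq2 called 724 genes, 4 members and 2 other genes of the pathway. The replicate numbers did not pair the libraries: deviations of same-numbered libraries from their genotype means correlated at 0.124, 0.008, 0.061 and -0.012, and Apoe-/- 2 correlated best with Mif-2-/-Apoe-/- 1, at 0.188. With the replicate block, in which Apoe-/- 5 has no partner and carries no weight, 560 genes were called, 7 of them members (Mdh2, Mdh1, Mpc1, Suclg1, Sdhc, Sdha and Mpc2) and 1 another gene of the pathway. The cause of these shifts was not tested.

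Leaving out libraries gave 9 to 1345 genes called, 0 to 9 members called, 0 to 3 other genes of the pathway called and 3 to 15 members without overlap, where the highest values are those without both Apoe-/- 5 and Mif-2-/-Apoe-/- 2. No ratio that differs alone among the 10 could pass the adjustment in this design, so the lack of calls among them says nothing about stability.

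Over the members and all settings, 538 fold changes kept their sign and their side of the threshold, 28 kept their sign and passed it, and 33 turned sign, each of the last without passing the test. With TMMwsp the log2 fold changes were 0.0455 for Dlat, 0.0279 for Pdp2, 0.0109 for Idh3b and 0.0056 for Idh3g. With library totals alone they were -0.0144 for Pcx, -0.0187 for Pdhx and -0.133 for Idh3a, and with the top genes' share in the model 0.1235 for Dlat and 0.4034 for Pdk4. With the replicate block they were -0.2205 for Pdhx, 1.1372 for Pdk4, -0.0193 for Idh3a and 0.0339 for Idh3b. In thinned counts they were -0.2173 for Pdhx, 0.0904 for Pdk4 and 0.0449 for Pdp2. Leaving out libraries gave -0.5227 to 0.1401 for Pdha1, -0.3986 to 0.1248 for Dlat, -0.296 to 0.3886 for Pdhx, -1.1253 to 3.2084 for Pdk4, -0.6591 to 0.3242 for Pdp2, -0.0089 to 0.2282 for Idh3a, -0.3489 to 0.1904 for Idh3b and -0.2704 to 0.0047 for Idh3g. The difference in the log2 ratio of Pdk4 to Pdk2 was -0.6464 with 5 added counts, and -0.1002 to 2.2489 when libraries were left out. That of Mdh1 to Mdh2 then ranged from -0.3639 to 0.3908, that of Sucla2 to Suclg2 from -0.0668 to 0.894 and that of Mpc1 to Mpc2 from -0.216 to 0.2594.

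Depth limits Dld, Pdk4 and Pdp2, which had means under 10 CPM. Sdhd was under the floor of 3 counts in every library, where Sdhb, a subunit of the same enzyme, had 1039 to 4951 counts. The reason for the missing Sdhd counts was not tested.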

Other observations

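Of 21 general mitochondrial genes (porins, import, chaperones, dynamics and maintenance), 15 had a fold change above 0, where 43.5% of all genes did. Their median log2 fold change was 0.34, and edgeR called 0, where it called 0.13% of all genes. At an unadjusted p under 0.05, 4 were higher in Apoe-/- livers, where 6.52% of all genes were, and none lower. The 4 were Phb, Hspd1, Vdac1 and Hspa9, the last named after its value was seen. DESeq2 called 2 of the 21 higher and none lower, where it called 2.35% and 2.58% of all genes. Phb, a prohibitin of the inner membrane, was at 482 CPM or more in Apoe-/- 1 to 4, at 250.5 CPM in Apoe-/- 5 and at 189, 294, 195 and 254 CPM in the Mif-2-/-Apoe-/- libraries, a log2 fold change of 0.98 (SE 0.31, edgeR adjusted p = 0.175). Hspd1, the mitochondrial chaperonin, was at 69.1 to 139.7 against 31.1 to 66.8 CPM, and Vdac1, a porin of the outer membrane, at 40.1 to 74.0 against 25.4 to 39.2 CPM. These 2 of the 21 did not overlap with Apoe-/- above, where 2.24% of all genes did not. The lower genes with the smallest p were Tomm40, Polg and Immt, with log2 fold changes of -0.41, -0.30 and -0.23.

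All 6 regulators of mitochondrial genes had a fold change below 0, as did 9532 of the 16860 genes tested. Their median was -0.50, against -0.17 over all genes tested. By edgeR 0 were called, and only 1, Ppargc1b, had an unadjusted p under 0.05, where 8.99% of all genes were lower at that threshold. Ppargc1b, a coactivator of mitochondrial and lipid genes, was at 9.74, 8.58, 21.6, 5.04 and 17.2 CPM in the Apoe-/- and at 61.4, 52.8, 100.3 and 57.8 CPM in the Mif-2-/-Apoe-/- libraries. The groups did not overlap, and the log2 fold change was -2.47 (SE 0.48, edgeR adjusted p = 0.0731, DESeq2 adjusted p = 0.00012). Ppara, the fatty acid receptor of hepatocytes, was at -0.58 (SE 0.36) and Nrf1 at -0.33 (SE 0.50).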
